A study of Mus musculus with 12 samples.

Results

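Cytoplasmic ribosomal proteins were followed in mouse skin over 14 days after a burn. The members are the genes whose annotated symbol begins with Rpl or Rps and a digit, or with Rplp, without the Rps6k kinases, and only probe sets that name 1 gene were used. This gave 25 genes on 30 probe sets, of 5599 genes and 7275 probe sets in all, with 14 genes of the large and 11 of the small subunit. The study hybridised total RNA from mouse skin to 12 Affymetrix arrays, 1 array per sample. Each of 4 groups holds 3 arrays of skin taken after a thermal injury, with 0 hours, 2 hours, 3 days or 14 days between the injury and the excision. The labels say that injury was induced but not whether the 0 hours skin had been burnt, and they name no strain, age or sex. They also do not state that the replicates came from different mice, so each p-value reflects the variation among these arrays alone, and that variation may be technical.

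The cytoplasmic ribosome joins a small subunit, which reads the messenger RNA, to a large subunit, which forms the peptide bonds. Ribosomal proteins are made in near equal numbers to match ribosomal RNA, and their messenger RNAs are among the most abundant of any cell. Most of these transcripts begin with a run of pyrimidines, the terminal oligopyrimidine or TOP tract, through which growth signals set their translation, so that protein output can change without a change in transcript level. Growing and dividing cells need more ribosomes, and skin repair includes such growth in epidermis and dermis.

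Array medians lay between 448.4 and 496.4 signal units. The skin markers Krt10 and Krt1, keratins of the upper epidermis, were above the median of all values on 12 of 12 arrays, as was the muscle marker Acta1. The log2 ratio of the 3′ to the 5′ Gapdh control probe set, a measure of RNA quality, averaged 1.99 ± 0.29 in the 0 hours arrays (SD, 3 arrays a group throughout), then 1.54 ± 0.46 for 2 hours, 0.52 ± 0.50 for 3 days and 0.21 ± 0.08 for 14 days. The mean log2 intensity of 26 skeletal muscle markers was 13.25 ± 0.45, 12.68 ± 0.10, 12.15 ± 0.54 and 12.33 ± 0.25 at the same time points, and that of 17 macrophage markers was 9.75 ± 0.13, 9.73 ± 0.41, 11.45 ± 0.33 and 10.23 ± 0.06. The mean of 14 keratinocyte markers was 12.02 ± 0.24, 12.26 ± 0.08, 12.20 ± 0.08 and 12.77 ± 0.16, and that of 13 fibroblast markers 12.55 ± 0.09, 12.16 ± 0.05, 12.42 ± 0.15 and 12.72 ± 0.22. RNA quality and tissue makeup thus differed between the time points compared here, and their part in the ribosomal protein values was not separated from that of time. Fits with the Gapdh ratio or the muscle marker mean as a covariate are given below. They cannot make this separation at 3 days or 14 days, where both measures lay below all their 0 hours values. In whole skin, fewer cells of a type and less RNA per cell cannot be told apart.

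Of 22 tested ribosomal protein genes 2 rose after the burn, Rpl13a and Rpl22, both at 14 days, when 6.90% of all genes rose, a share near that of the members. Of the 25 genes, 22 were bright enough to be tested, 11 of each subunit. Their median log2 change against 0 hours was 0.26 at 2 hours, 0.12 at 3 days and 0.30 at 14 days, or 1.20-fold, 1.08-fold and 1.23-fold. Over all 3477 genes tested the median change was 0.05, 0.02 and 0.05. The members' medians were above 0 at the 3 times with the deposited values, with quantile normalization and with median scaling.

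At 2 hours limma, fitted over all genes with Benjamini-Hochberg adjustment, called 0 of the 22 genes, where 5.67% of all genes were called. At an unadjusted p under 0.05, 6 were up and 0 down, beside 14.0% up and 8.31% down among all genes. At 3 days it called 0 of 22, where 13.3% of all genes were called, with 2 up and 0 down at an unadjusted p under 0.05, beside 17.5% and 12.3% of all genes. At 14 days it called 2 of 22, both up, where 6.90% of all genes rose, and 7 were up and 0 down unadjusted, beside 16.9% and 11.1%. The shares called at an adjusted p under 0.05 were below those of all genes at 2 hours and 3 days, and near the background at 14 days. At an unadjusted p under 0.05 the share up was above that of all genes at 2 hours and 14 days and below it at 3 days. These differences were not tested. Signs ran mostly one way: 20 of 22 changes were above 0 at 2 hours, 15 at 3 days and 20 at 14 days, beside 54.6%, 51.8% and 55.9% of all genes. All 3 comparisons share the 0 hours arrays, so their signs are not separate evidence.

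**Figure D1:**
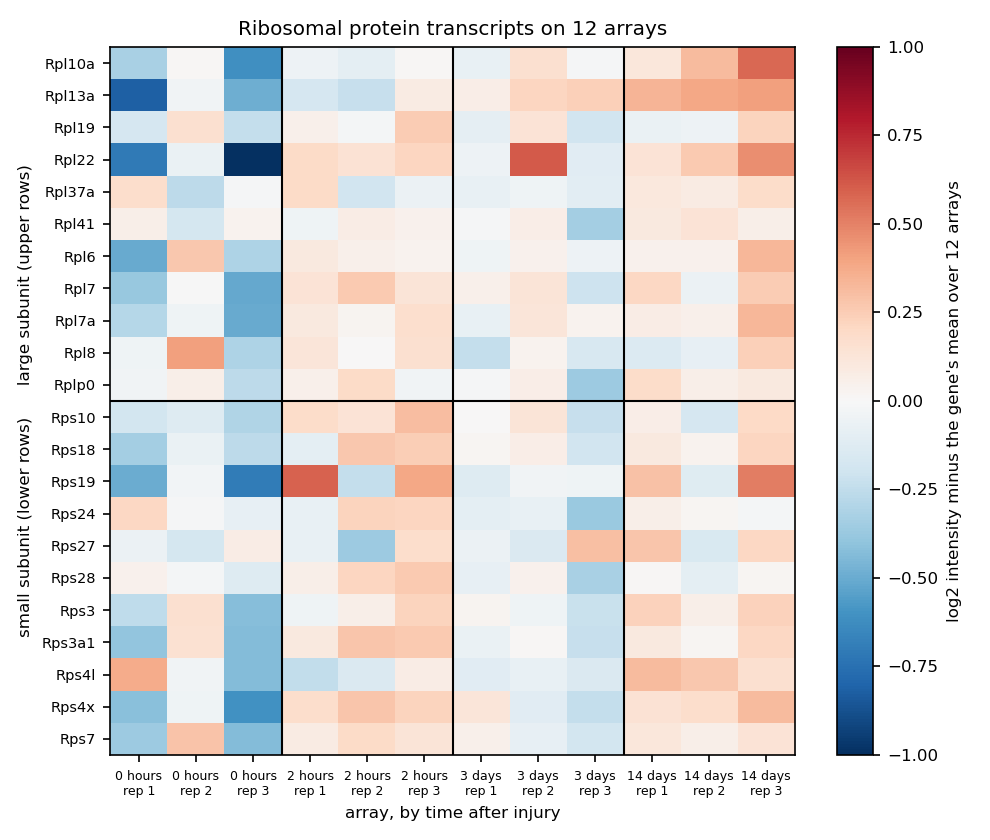
Log2 intensity of the 22 tested ribosomal protein genes on each of the 12 arrays, minus the gene's mean over the arrays; columns are arrays in order of time after injury and rows are genes, with the large subunit above the line and the small subunit below. The columns of 0 hours replicates 1 and 3 are the bluest, and that of 0 hours replicate 2 is near 0, with a member mean of 0.02 against −0.22 and −0.36.

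The 0 hours arrays disagreed among themselves. The mean of the 22 members, each centred on its own mean over the 12 arrays, was −0.22, 0.02 and −0.36 on the log2 scale in 0 hours replicates 1, 2 and 3. Replicate 2 was thus level with the later arrays, which ran from −0.14 to 0.24. Of the 22 genes, 16 had their highest 0 hours value in replicate 2 and 16 their lowest in replicate 3. Replicate 3 also had the lowest mean intensity with 2% trimmed at either end, 818.2 against 885.2 to 909.6 on the other arrays. Its median intensity was not low, at 480.6 against 448.4 and 477.3 in replicates 1 and 2. The part of the lower trimmed mean in its low member values was not tested. The median within-group SD of the members was 0.28 at 0 hours, against 0.10 at 2 hours, 0.14 at 3 days and 0.09 at 14 days. All genes showed the wider spread at 0 hours too, with a median SD of 0.32, against 0.20, 0.22 and 0.20. Without 0 hours replicate 2 the members' median log2 change was 0.43 at 2 hours, 0.27 at 3 days and 0.46 at 14 days, and that of 3 days was 0.071 without replicate 1 and 0.063 without replicate 3. Without replicate 2, calls numbered 3 at 2 hours (Rpl22, Rps3a1 and Rps4x), 2 at 3 days (Rpl13a and Rpl22) and 5 at 14 days (Rpl10a, Rpl13a, Rpl22, Rps19 and Rps4x), while the calls among all genes also went up, to 316, 558 and 486.

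**Figure D2:**
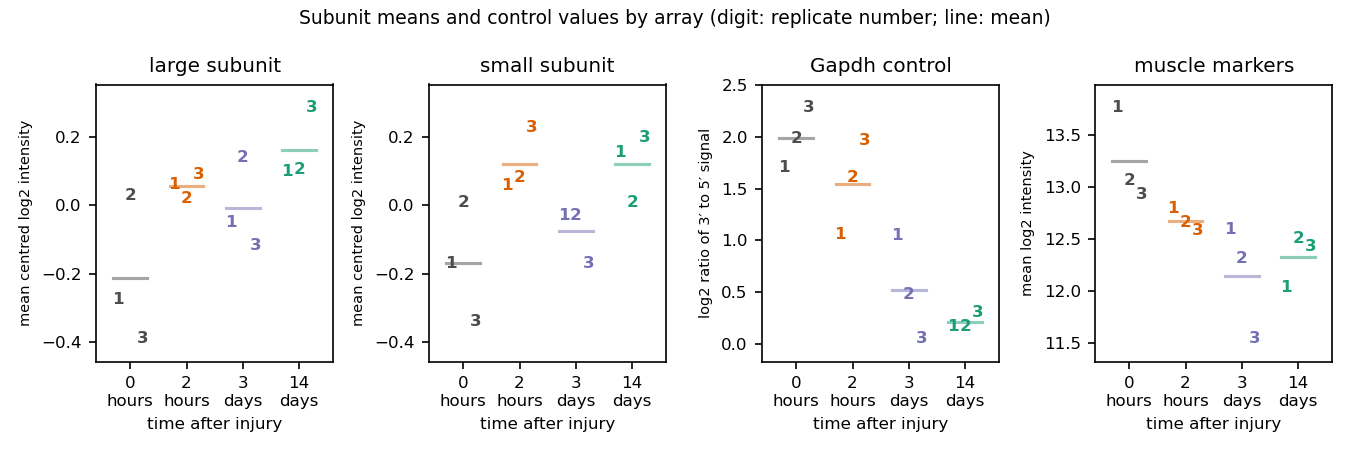
Mean centred log2 intensity of the 11 large and 11 small subunit genes, the Gapdh 3′ to 5′ log2 ratio and the mean log2 intensity of muscle markers, each by time after injury; digits are replicate numbers at that array's value and lines are means of 3 arrays. At 0 hours, replicate 2 lies above replicates 1 and 3 in both subunits, while the Gapdh ratio goes down from a mean of 1.99 at 0 hours to 0.21 at 14 days.

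Large subunit proteins were measured by 11 tested genes. Rpl13a, which besides its place in the ribosome is known from a complex that silences the translation of inflammatory transcripts, was measured at 507, 870.1 and 637 signal units on the 3 arrays at 0 hours. It was 794, 762 and 946 at 2 hours, 935, 1035 and 1053 at 3 days, and 1127, 1164 and 1185 at 14 days. All arrays of 3 and 14 days were above all arrays of 0 hours, and those of 14 days were also above those of 3 days. Rpl13a rose by 14 days, with a log2 change of 0.82 ± 0.20 (standard error of the limma fit, 3 arrays a group), a fold of 1.77 and a limma adjusted p of 0.020. Its log2 change was 0.34 ± 0.20 at 2 hours (limma adjusted p = 0.34) and 0.62 ± 0.20 at 3 days (0.055). Leaving out 0 hours replicate 1 ended the 14 days call (limma adjusted p = 0.082), as did leaving out 14 days replicate 1 (0.063), 2 (0.060) or 3 (0.056).

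Rpl22, an RNA-binding protein of the large subunit that is known to be needed for T cell development, stood at 369, 574 and 284 at 0 hours. Its values were 687, 666 and 697 at 2 hours, 582, 922 and 557 at 3 days, and 660.5, 722 and 829 at 14 days. The groups at 2 hours and 14 days did not overlap that of 0 hours, whereas 1 array of 3 days fell below the highest 0 hours array. Rpl22 rose by 14 days, with a log2 change of 0.90 ± 0.25, a fold of 1.87 and a limma adjusted p of 0.035. The log2 changes were 0.80 ± 0.25 at 2 hours (limma adjusted p = 0.079) and 0.77 ± 0.25 at 3 days (0.057). In 0 hours replicates 1 and 3 the gene lay under the filter intensity of 475.55, so it passed the filter mainly through the later arrays. With a floor at the 40th percentile its changes were 0.69 at 2 hours and 0.66 at 3 days. Of the 6 arrays compared, leaving out any but 0 hours replicate 2 ended the 14 days call, with limma adjusted p of 0.098 and 0.10 without 0 hours replicates 1 and 3, and 0.077, 0.085 and 0.10 without 14 days replicates 1, 2 and 3. Either call was also lost when the 2 time points were fitted alone, or with the Gapdh ratio or the muscle marker mean as a covariate, where limma called 2 and 15 of all genes at 14 days.

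The bases around the annotated start of transcription are where a TOP tract would lie. Of the 25 genes 22 had windows in RefSeq (GRCm38.p6), 28 windows in all. A run of at least 8 bases that are each C or T, read on the transcribed sense strand from 10 bases before to 20 bases from the start, was present in 8 of 28 windows (28.6%), beside 11.2% of all 32851 windows. The runs were in 4 of 12 large and 4 of 10 small subunit genes. Those of Rpl13a and of 4 other members are shown, with the run in capitals, beside both windows of Rpl22, which held none.
Rpl13a, chr7:45128726-45128755, minus strand: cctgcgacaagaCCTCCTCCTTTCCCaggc
Rpl7a, chr2:26910797-26910826, plus strand: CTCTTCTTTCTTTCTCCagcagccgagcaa
Rps10, chr17:27635225-27635254, minus strand: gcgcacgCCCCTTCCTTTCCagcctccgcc
Rps18, chr17:33955646-33955675, minus strand: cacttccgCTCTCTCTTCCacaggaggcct
Rps27, chr3:90213629-90213658, minus strand: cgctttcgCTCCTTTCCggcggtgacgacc
Rpl22, chr4:152324426-152324455, plus strand: cttctggaatgttccagctcccactgacag
Rpl22, chr4:152325716-152325745, plus strand: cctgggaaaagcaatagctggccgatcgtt
The tract of Rpl13a was 14 bases long and that of Rpl7a 17, cut at the window's edge, while the 2 called genes differed, with a run in one and none in the other. The letters CCGGAAG, searched on both strands of the 300 bases around the start, were in 9 of 28 windows (32.1%), beside 8.86% of all windows, and may overlap a pyrimidine run on the other strand. A match is only a match of letters, and annotated starts can lie some bases from the true start.

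Rpl10a, a protein of the L1 stalk that guides the spent transfer RNA out of the ribosome, narrowly missed the threshold. Its brighter probe set read 6826, 8604 and 5584 at 0 hours, 8234, 7982 and 8610.0 at 2 hours, 8100.1, 9552 and 8474 at 3 days, and 9246, 10645 and 12697 at 14 days. The 14 days arrays were all above those of 0 hours, with a log2 change of 0.64 ± 0.20 (limma adjusted p = 0.051). A second probe set of the gene gave 0.25 for the same comparison, so the size differed by probe set. Quantile normalization, a floor at the 40th percentile, a filter at the 75th percentile and trended and robust variance each made it a call. In all it was called in 5 of 21 alternatives and not in the other 16, with a limma adjusted p of up to 0.944. Without 1 array its log2 change was as low as 0.49.

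Rpl7 and Rpl7a, RNA-binding proteins of the large subunit from separate genes, showed differences of the same sign as Rpl10a. These were smaller than that of Rpl10a at 14 days but larger at 2 hours, where Rpl10a changed by 0.26. The Rpl7 probe set shares its accession with one of Rps24, and that of Rpl7a with those of Surf1 and Surf2. Rpl7 read 11650.2, 15106 and 10622 at 0 hours, 16646, 18134 and 16546 at 2 hours, 15707, 16584 and 13097 at 3 days, and 17507, 14587 and 18032 at 14 days. Only at 2 hours were all arrays above those of 0 hours, with a log2 change of 0.47 ± 0.19 (limma adjusted p = 0.15). Rpl7a was measured at 7835, 9274 and 6736 at 0 hours, 10229, 9733 and 10709 at 2 hours, 9088, 10395 and 9809.9 at 3 days, and 10061, 9913 and 12022 at 14 days. It did not overlap 0 hours at 2 hours or 14 days, with changes of 0.37 ± 0.18 (limma adjusted p = 0.23) and 0.43 ± 0.18 (0.13).

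The remaining 6 large subunit genes lay closer to 0. Rplp0, the base of the stalk that recruits translation factors, changed by 0.15 ± 0.18 at 2 hours, −0.02 ± 0.18 at 3 days and 0.19 ± 0.18 at 14 days. For Rpl8, which lies near the peptidyl transferase centre, the changes were 0.08 ± 0.20, −0.14 ± 0.20 and −0.01 ± 0.20. The 95% interval of its 14 days change ran from −0.45 to 0.42, so changes of that size remain possible. Rpl41, which encodes a very short basic peptide, ran from 50785 to 70692 over the 12 arrays and was the brightest probe set of the array, control probe sets aside, on 11 of them. Whether such bright signal was still proportional to RNA was not tested. Rpl6, Rpl19 and Rpl37a had changes of 0.32, 0.12 and 0.16 at 14 days, each with a standard error of 0.18 to 0.20, and overlapped 0 hours at the 3 later times.

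**Figure D3:**
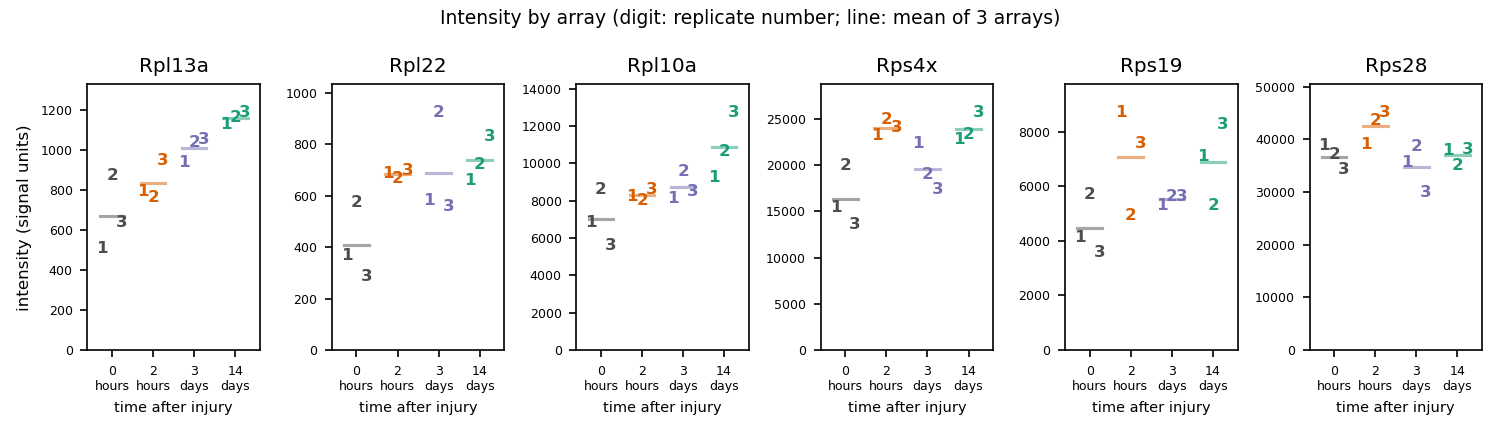
Intensity in signal units of 6 ribosomal protein genes by time after injury, each panel with its own axis from 0; digits are replicate numbers at that array's value and lines are means of 3 arrays. Rpl13a values climb from 507 to 870.1 at 0 hours to 1127 to 1185 at 14 days, while values of the brightest Rps28 probe set at 0 hours and 14 days overlap.

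Small subunit proteins had 11 tested genes and 0 calls at any time against 0 hours. Rps4x was, however, called at 14 days with trended and robust variance (limma adjusted p = 0.047) or a filter at the 75th percentile (0.0465). Rps4x, encoded on the X chromosome, read 15398, 19996 and 13537 at 0 hours, 23259.5, 24915 and 24079 at 2 hours, 22401, 19020.2 and 17427 at 3 days, and 22765, 23279 and 25664 at 14 days. All arrays of 2 hours and 14 days were above all arrays of 0 hours, while 3 days overlapped 0 hours. The log2 changes were 0.58 ± 0.19 (limma adjusted p = 0.082), 0.28 ± 0.19 (0.34) and 0.57 ± 0.19 (0.065) at 2 hours, 3 days and 14 days, the smallest p of the small subunit at each time.

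Rps19, whose human counterpart is mutated in Diamond-Blackfan anaemia, had the largest standard error of the small subunit. It read 4109, 5688 and 3572 at 0 hours, 8693, 4916 and 7587 at 2 hours, 5294, 5644 and 5630.4 at 3 days, and 7103, 5312 and 8260.2 at 14 days. In each later group at least 1 array fell below the highest 0 hours array. Its log2 changes of 0.65 ± 0.25 at 2 hours and 0.63 ± 0.25 at 14 days were not called (limma adjusted p = 0.13 and 0.11).

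Rps10 and Rps18 differed from 0 hours without overlap at 1 time point each. Rps10 read 16342, 16946 and 15079.9 at 0 hours, 21091, 20440.0 and 23002 at 2 hours, 18606, 20260.1 and 15821 at 3 days, and 19423, 16504 and 21334 at 14 days. The groups at 0 and 2 hours did not overlap, with a log2 change of 0.42 ± 0.18 (limma adjusted p = 0.18). Rps18 read 21599.8, 26109 and 22783 at 0 hours, 25501, 32846 and 32429 at 2 hours, 27743, 28649 and 23896 at 3 days, and 29163, 28001 and 31638 at 14 days. Here 14 days stood above 0 hours on all arrays, with a change of 0.34 ± 0.18 (limma adjusted p = 0.24).

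Rps3, which borders the path of the messenger RNA into the small subunit, changed by 0.25 ± 0.19 at 2 hours, 0.10 ± 0.19 at 3 days and 0.35 ± 0.19 at 14 days. Rps3a1 and Rps7 also had their smallest change at 3 days, at 0.44, 0.13 and 0.33 and at 0.31, 0.10 and 0.27. Rps27 stayed between 637 and 1011 on the 12 arrays, with changes of −0.03, 0.08 and 0.16. The brightest Rps28 probe set had its highest group at 2 hours, at 39089, 43494 and 45002, above the 38736, 37074 and 34357 of 0 hours on all arrays. Its log2 change was 0.21 ± 0.17 (limma adjusted p = 0.50) and its 14 days change 0.01 ± 0.17. Another Rps28 probe set that passed the filter but was not fitted changed by 0.38 at 2 hours and 0.24 at 14 days. All its arrays of 2 hours and 14 days were above those of 0 hours, so the result for Rps28 depended on the probe set.

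**Figure D4:**
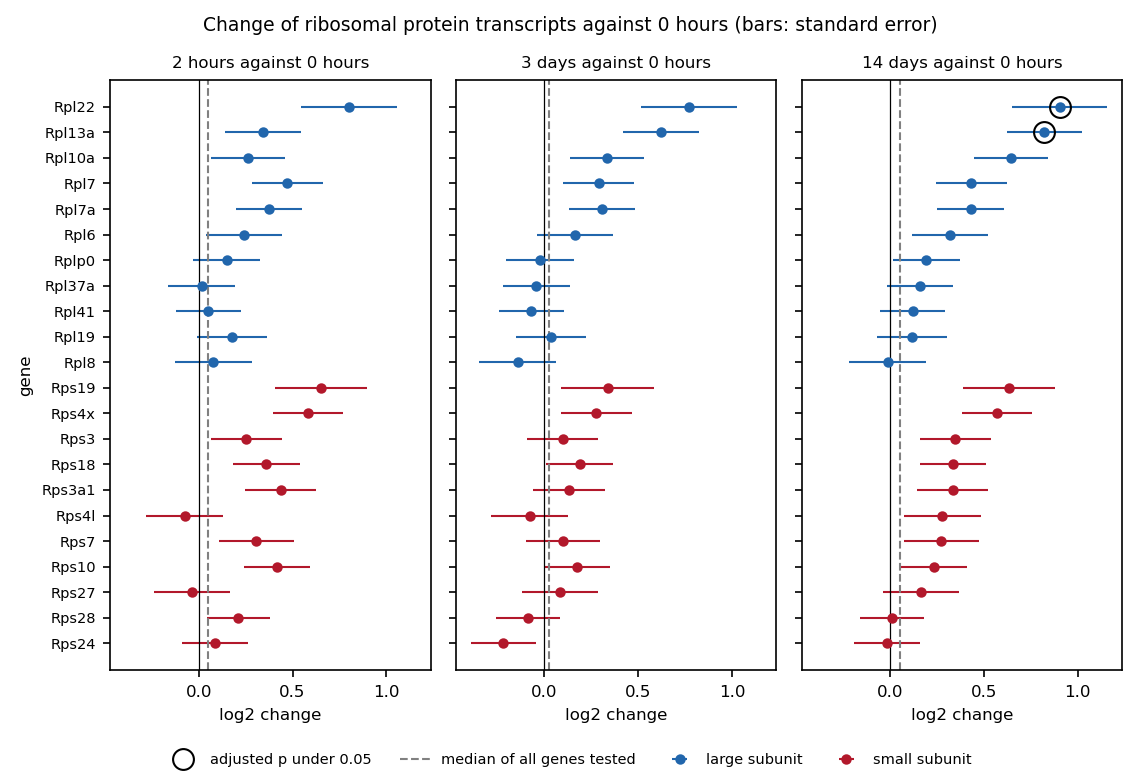
Log2 change against 0 hours of the 22 tested genes at 2 hours, 3 days and 14 days, with standard errors of the limma fit; large subunit genes are blue, small subunit genes red, rings mark an adjusted p under 0.05 and the dashed line is the median of all 3477 genes. The 2 rings are Rpl22 and Rpl13a at 14 days, with changes of 0.90 and 0.82.

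Some probe sets limit what can be said of a gene. The bright Rps24 probe set carries in the annotation an accession that it shares with the probe set of Rpl7, so which gene either measures is uncertain. The Rpl7a probe set likewise shares its accession with probe sets of Surf1 and Surf2. The bright Rps24 probe set read 37976, 32706 and 31129.6 at 0 hours, 31392, 38525 and 38300.3 at 2 hours, 30814, 31346 and 25442 at 3 days, and 34337, 33481 and 32519 at 14 days. The other Rps24 probe set lay under the floor on 11 of 12 arrays. Over the 12 arrays the bright probe set had a Pearson correlation of 0.24 with Rpl7 and of 0.86 with Rps28, points that share the arrays and their scaling. The 3 probe sets of Rps28 gave 14 days changes of 0.01, 0.24 and 0.44, the last from a probe set under the floor on 1 array.

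Rps4l, a copy related to Rps4x, is a transcribed pseudogene in RefSeq and the only one of the 25 that is not protein coding there. It read 676, 510.2 and 386 at 0 hours, 439, 472 and 549 at 2 hours, 482, 495 and 473 at 3 days, and 648, 629 and 582 at 14 days, with a 14 days change of 0.28 ± 0.20 (limma adjusted p = 0.40). A second Rps4l probe set lay under the floor on 11 of 12 arrays and was not fitted. Of the 3 genes that were too dim to test, Rpl39 lay under the floor on 12 of 12 arrays and Rpl7l1, a relative of Rpl7, on 10. Rpl39l, a copy of Rpl39, ranged from 278 to 573. Without Rps24 and Rps4l the members' medians were 0.28, 0.15 and 0.33 at 2 hours, 3 days and 14 days.

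The large and small subunit were compared by their changes and by their mean levels on each array. At 2 hours the median log2 change was 0.24 for the large and 0.31 for the small subunit. At 3 days these medians were 0.16 and 0.10, and at 14 days 0.32 and 0.28. The mean of the large minus the mean of the small subunit, on centred log2 values, was −0.04 ± 0.06 in the 0 hours arrays (SD, 3 arrays a group), against −0.07 ± 0.07 for 2 hours, 0.07 ± 0.10 for 3 days and 0.04 ± 0.09 for 14 days. Since each gene is centred on its own mean, only differences between time points can be read from these values, not their sign. The means of 2 hours and 3 days lay farthest apart, and their arrays overlapped, with −0.14 to 0.0022 at 2 hours and −0.021 to 0.17 at 3 days. The 2 genes called belong to the large subunit, but the number of tested genes called was too small to compare subunits. The arrays of 0 hours did not overlap those of 2 hours for 3 large subunit genes (Rpl22, Rpl7 and Rpl7a) and 3 small subunit genes (Rps4x, Rps10 and Rps28), all higher at 2 hours, where 13.7% of all genes were higher without overlap. At 14 days these were 4 (Rpl13a, Rpl22, Rpl10a and Rpl7a) and 2 (Rps4x and Rps18), beside 17.5% of all genes, and at 3 days 1 (Rpl13a) and 0, beside 16.6%. With quantile normalization the large and small subunit counts were 2 and 2 at 2 hours, 1 and 1 at 3 days, and 6 and 5 at 14 days. The shares of all genes without overlap, here and below, are those of the deposited values and were not computed for other scalings.

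Most members varied together from array to array. Over 231 pairs of the 22 genes the median Pearson correlation across the 12 arrays was 0.50, with 0.49 within the large subunit, 0.46 within the small subunit and 0.55 between subunits. The median over all gene pairs was 0.02. These points share array, depth of hybridisation and scaling, and the 2 low 0 hours arrays enter each of them. The closest pairs were Rps3a1 with Rps7 (0.94) and Rpl22 with Rpl7a (0.94). Rps27 and Rpl37a had median correlations of −0.08 and 0.02 with the other members, and the brightest probe set, Rpl41, had 0.18.

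Between the later time points the members moved little. From 2 hours to 3 days limma called 0 of 22, where 9.40% of all genes were called, with 0 up or down at an unadjusted p under 0.05, beside 12.9% and 12.4% of all genes. The median log2 change was −0.16, with 3 of 22 changes above 0, beside 46.0% of all genes. The small subunit median was −0.24 and the large −0.08, and 6 small subunit genes (Rps28, Rps24, Rps4x, Rps3a1, Rps10 and Rps7) and 0 large subunit genes were lower at 3 days without overlap, beside 18.5% of all genes. With quantile normalization the medians were −0.04 and −0.03 and 0 genes of either subunit were lower without overlap, while with median scaling they were −0.29 and −0.12 with 6 small and 3 large subunit genes lower. Without 3 days replicate 3, which had the lowest value of its group in 16 of the 22 genes, the members' median was −0.08. From 3 to 14 days all 22 changes were above 0, beside 57.6% of all genes, with a median of 0.18. Limma again called 0 of 22, where 3.39% of all genes were called, and 0 were up or down at an unadjusted p under 0.05, beside 4.57% and 7.16%. Here 8 genes, 2 of the large and 6 of the small subunit, were higher at 14 days without overlap, beside 10.7% of all genes, but 5 and 6 with quantile normalization and 2 and 2 with median scaling. Rpl10a had the largest large subunit change, 0.31 ± 0.20 (limma adjusted p = 0.65), and Rps4l the largest of the small subunit, 0.36 ± 0.20 (0.59).

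Other parts of the translation machinery are given for comparison, from lists chosen with earlier results of these data known. Of 28 ribosome biogenesis factors tested, which process and assemble ribosomal RNA in the nucleolus, 5 rose and 0 fell at 2 hours, with a median log2 change of 0.45, while 139 of all 3477 genes rose. Gar1 (1.36 ± 0.21, limma adjusted p = 0.0021) and Nop56 (1.32 ± 0.22, 0.0028), core proteins of small nucleolar ribonucleoproteins, rose under all alternatives that tested them. The count ranged from 2 without 2 hours replicate 3 to 10 without 0 hours replicate 2, and was 3 without 0 hours replicate 3 or 2 hours replicate 1. At 3 days 3 rose and 0 fell, near the 8.89% of all genes that rose, with a median of 0.17, and the count was 0 without 0 hours replicate 1 or 3 days replicate 3, 1 without 0 hours replicate 3 or 3 days replicate 2, and 5 without 0 hours replicate 2. At 14 days 4 rose and 0 fell, beside 6.90% of all genes, with a median of 0.32. Nop56 was among them (1.02 ± 0.22, limma adjusted p = 0.010), and the count was 7 without 0 hours replicate 2, 1 without 14 days replicate 2, and 2 without any other array of the 2 groups. All 3 calls at 3 days and all 4 at 14 days, that of Nop56 included, were lost with the Gapdh ratio or the muscle marker mean as a covariate. So were nearly all calls among all genes at 14 days, as given for Rpl22. Both measures lay below all their 0 hours values on each array of 3 days and 14 days. These fits therefore cannot separate them from time, and the losses are not particular to these genes. From 2 hours to 3 days 2 of the 28 factors fell, beside 3.31% of all genes. They were Gar1 (fell by 0.78 ± 0.21) and Nop16 (fell by 0.60 ± 0.18, limma adjusted p = 0.0498). The call of Nop16 was lost without any 1 of the 6 arrays compared, and that of Gar1 without any but 2 hours replicate 1.

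Of 15 other transcripts with a TOP tract, 3 rose and 0 fell at 2 hours, 1 rose at 3 days and 3 rose at 14 days, with medians of 0.37, 0.30 and 0.48, where 139 of 3477, 8.89% and 6.90% of all genes rose. Pabpc1, the poly(A)-binding protein, rose at 3 days (1.18 ± 0.21, limma adjusted p = 0.0021) and 14 days (1.31 ± 0.21, 0.0020). Both calls held without each array in turn. They were lost with the Gapdh ratio or the muscle marker mean as a covariate, fits that cannot separate these measures from time. The elongation factors Eef1a1 and Eef2, which carry the steps of peptide elongation, changed by 0.25 ± 0.18 and 0.40 ± 0.20 at 14 days and were not called (limma adjusted p = 0.41 and 0.23). The 2 hours count was 0 without 0 hours replicate 1 or any 2 hours array, 1 without 0 hours replicate 3 and 4 without 0 hours replicate 2. The 3 days count was 4, and the 14 days count 6, without 0 hours replicate 2, and the latter was 1 without 0 hours replicate 1 or 14 days replicate 1 or 3. Of 9 tested regulators of ribosomal protein synthesis, Akt1, a kinase upstream of mTOR, rose at 3 days (1.22 ± 0.21, limma adjusted p = 0.0014) and 14 days (1.10 ± 0.21, 0.0050). The calls of Akt1 were lost with either covariate, with the same limit. The regulators' medians were 0.13, −0.045 and 0.0039 at 2 hours, 3 days and 14 days.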

How the data were processed

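The authors deposited 1 linear signal intensity per probe set and array. The sources used here name no scanner software, scaling or detection calls. Members and gene lists were chosen with earlier results of these data known. Array means with 2% trimmed at either end differed from the overall mean by no more than 8.56%, so the intensity was used as deposited. That largest deviation was of 0 hours replicate 3, the array with the lowest trimmed mean, and was left uncorrected. Dim values were raised to a floor, the 25th percentile of all values (225.375), log2 was taken, and a probe set was kept if 3 or more arrays exceeded the median of all values (475.55), with the probe set of the highest mean for each gene (3477 genes). All 12 arrays were fitted with limma 3.58.1 (R 4.3.3), 1 coefficient per time point, with Benjamini-Hochberg adjustment over all genes and calls at an adjusted p under 0.05. With 3 arrays a group the smallest p of an exact test is 0.1. The fit was tested on simulated data. Figures were drawn in matplotlib 3.10.9 (Python 3.11.15).

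Gene names come from GEO's platform annotation, with all 25 members matched to RefSeq by gene ID. Another 31 probe sets that name a ribosomal protein and other genes were no members. Any member could be named, with array values in full for members called or among the 3 smallest p of their subunit against 0 hours. From other lists at most 4 called genes with the smallest p were named, and Eef1a1 and Eef2 were chosen after their values were seen. Replicate numbers were not taken as pairing, since deviations from the group means correlated above 0.1 in only 2 of 18 pairs with equal numbers.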

Additional observations from a re-analysis of the deposited data

How the results depend on the processing

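The members' median change against 0 hours was above 0 in all alternatives run. Leaving out 1 array moved it between 0.17 and 0.43 at 2 hours, 0.063 and 0.27 at 3 days, and 0.22 and 0.46 at 14 days, with the low end without 0 hours replicate 3 and the high end without 0 hours replicate 2. From 2 hours to 3 days it was −0.16, but −0.028 with quantile normalization, −0.074 with array weights and between −0.23 and −0.077 without 1 array (the latter without 3 days replicate 3). Calls were few and moved with most choices. At 2 hours the count of 0 became 1 with probe sets naming several genes counted, and 0 to 3 without 1 array. At 3 days the count of 0 became 1 with quantile normalization, with a floor at the 40th percentile, with a filter at the 75th percentile or with probe sets naming several genes, 2 with array weights, and 0 to 2 without 1 array. At 14 days the count of 2 became 1 with median scaling, no filter or array weights (Rpl22 lost in each). It became 3 with quantile normalization or a floor at the 40th percentile (Rpl10a added), or a filter at the 75th percentile (Rpl10a and Rps4x added, Rpl22 not tested). With trended and robust variance, or with probe sets naming several genes, it was 4. The 14 days count was 0 with the 2 time points alone, with the Gapdh ratio or with the muscle mean as a covariate, and 0 to 5 without 1 array. The large minus small difference at 0 hours was −0.045, but 0.024 with the filter at the 75th percentile, which drops Rpl22 and other dim genes. The 3 days change of Rps24, −0.22 and not called, was 0.025 and 0.032 with the Gapdh and muscle covariates. With the replicate block the counts stayed at 0, 0 and 2. The covariates, the probe sets naming several genes and the set without Rps24 and Rps4l were chosen after seeing the data. The cause of these moves was not tested. Low signal limits Rpl13a, Rpl22, Rps27 and Rps4l most, and 3 arrays a group limit all values.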

Other observations

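Mitochondrial ribosomal proteins, which build the separate ribosome of mitochondria, had medians below 0. Of 36 tested genes 0 rose and 1 fell at 2 hours, and 0 rose or fell at 3 days and 14 days by limma, with 0 up and 11 down at an unadjusted p under 0.05 at 3 days and 1 up and 6 down at 14 days, beside 12.3% and 11.1% of all genes down. Their median log2 changes were −0.08, −0.24 and −0.20 at 2 hours, 3 days and 14 days. The 1 called gene, Mrpl20, fell by 0.93 ± 0.22 at 2 hours (limma adjusted p = 0.024), a call that ended without 0 hours replicate 3 and without 2 hours replicate 2 or 3. Whether the 2 sets of ribosomal proteins differ was not tested, and the muscle marker mean was lower at these times, as given above.

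A further 31 probe sets name a cytoplasmic ribosomal protein together with other genes, and 30 of them passed the filter. Their median log2 changes were 0.26 at 2 hours, 0.11 at 3 days and 0.27 at 14 days, with 26, 22 and 27 of 30 above 0. Of 14 tested cell cycle and replication genes, 1 rose at 2 hours, 5 at 3 days and 12 at 14 days, beside 139 of 3477, 8.89% and 6.90% of all genes, with medians of −0.13, 0.57 and 1.04.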
